A study of Mus musculus with 39 samples.

Results

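The transcripts described here are those of 10 genes that clear haemoglobin and haem: Cd163, Hp, Hpx, Lrp1, Hmox1, Blvra, Blvrb, Fth1, Ftl1 and Slc48a1. They were taken by name from a table of 55416 genes measured by RNA sequencing in the livers of 39 male mice, with 1 library per mouse. Knockout mice carried the allele CD163tm1(KOMP)Vlcg on the C57BL/6NTac background, and the wildtype mice were their littermates from crosses of heterozygotes. From 6 weeks of age the mice were given either chow with normal drinking water or Western diet with fructose in the water, for 8 weeks. On chow there were 5 wildtype and 4 knockout mice, and on Western diet 15 mice of each genotype. Single livers are named here by group and by the replicate letter of the labels. The sources used here do not say which exons the allele removes. The transcripts come from whole liver tissue, so fewer cells of a type and less RNA per cell cannot be told apart.

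Library totals lay between 8578865 and 30438808 counts, with a median of 14573193. All 10 genes passed the filter on low counts, which left 15296 genes to be tested. The tissue label held: albumin (Alb), the main plasma protein of hepatocytes, was at 17660 to 48194 CPM, the count scaled to a common library size, and Clec4f, a lectin of Kupffer cells, was at 35.3 to 189 CPM. In 4 libraries the genes that separate the diets stood with the other diet. On a scale with the mean of chow at 0 and that of Western diet at 1, wildtype chow A and knockout chow D lay at 0.939 to 0.960, against -0.118 to 0.140 for the other 7 chow libraries. Wildtype Western diet A and knockout Western diet M lay at 0.0913 to 0.186, against 0.814 to 1.24 for the other 28. These 4 libraries were kept under their labels, and a part of the results is also given without them. They were picked by their diet genes, so a count of diet genes without them is not independent of that choice. Of all library pairs, wildtype Western diet L and M differed least (chi-square per gene 3.98, next pair 10.4, median pair 61.0). A value above counting noise cannot tell 2 mice from 2 preparations of 1 liver. By their labels L and M count as 2 mice.

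Red blood cells that break down release haemoglobin, which haptoglobin (Hp) binds in plasma, and CD163 on macrophages takes up the complex. Haem that escapes is bound by hemopexin (Hpx), whose complex enters cells through LRP1. Inside the cell SLC48A1 carries haem out of the lysosome, haem oxygenase 1 (Hmox1) opens the ring and frees its iron, biliverdin reductases make bilirubin, and ferritin stores the iron. In liver, hepatocytes secrete both plasma carriers as acute phase proteins, and Kupffer cells are a main site of red cell disposal.

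The ferritin subunits are known for control after transcription, so their transcript levels are read here beside the element that exerts it. An iron-responsive element is a short hairpin that iron regulatory proteins bind, and in the 5′ untranslated region (UTR) it blocks translation when iron is low. A search of 5′ UTRs in GENCODE transcripts (GRCm38) took a C, 5 bases, a loop and 5 bases that pair with the first 5. The loop was CAGTG followed by A, C or T, and G was allowed to pair with T. The search found 23 of 20853 genes (0.110%). Fth1 and Ftl1 were the 2 members among them. Their elements are shown because they carry a layer of control that counts of transcripts do not measure, and the loops are in capitals:
Fth1: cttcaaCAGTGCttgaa
Ftl1: cttcaaCAGTGTttgaa
The Fth1 element lay on chromosome 19 at bases 93 to 109 of a 5′ UTR of 224 bases, and the Ftl1 element on chromosome 7 at bases 84 to 100 of one of 253 bases. Both hairpins have the same paired bases and differ in the last base of the loop.

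Promoter windows from 250 bases before to 50 bases after a gene's start were at hand in RefSeq (GRCm38.p6) for 7 of the 10 genes. Hpx and Cd163 are shown, since the same 5 wildtype livers on Western diet held the highest levels of both transcripts, with the matches to the motifs searched in capitals:
Hpx, chr7:105600067-105600366, minus strand: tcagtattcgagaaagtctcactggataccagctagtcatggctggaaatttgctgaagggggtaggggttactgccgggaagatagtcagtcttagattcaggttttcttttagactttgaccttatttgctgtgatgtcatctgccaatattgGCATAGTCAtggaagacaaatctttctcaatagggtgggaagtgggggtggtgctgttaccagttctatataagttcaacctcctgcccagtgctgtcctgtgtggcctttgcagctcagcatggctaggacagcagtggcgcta
Cd163, chr6:124304401-124304700, plus strand: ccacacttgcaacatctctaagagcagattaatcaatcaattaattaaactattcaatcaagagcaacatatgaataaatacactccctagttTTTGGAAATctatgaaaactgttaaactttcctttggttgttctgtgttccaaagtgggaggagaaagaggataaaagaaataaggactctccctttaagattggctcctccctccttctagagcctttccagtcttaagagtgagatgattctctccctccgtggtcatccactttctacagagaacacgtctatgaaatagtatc
The motifs searched on both strands were TTCNNNGAA for STAT factors, TTNNGNAAT for C/EBP factors, TGACNNNGC for the antioxidant response element and GAGGAA for PU.1 and SPI-C. The Cd163 window held 1 match, to the C/EBP letters, and the Hpx window held 1, to the antioxidant response element read on the opposite strand. Over 32851 promoter windows, 11.5% held the C/EBP letters and 12.4% the antioxidant response element. Neither window shared a matched motif with the other, and a match describes letters alone.

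The first comparisons concern the targeted gene. Cd163, the receptor of the haemoglobin and haptoglobin complex, was at 12.5, 13.1, 4.95, 5.21 and 7.94 CPM in wildtype chow A to E and at 0.440, 0.746, 0.678 and 0.540 CPM in knockout chow A to D. On Western diet it ran from 2.59 to 15.8 CPM with a median of 7.70 CPM in wildtype mice, and from 0 to 0.661 CPM with a median of 0.377 CPM in knockout mice. Every wildtype liver stood above every knockout liver on both diets, a separation seen in 0.00654% of genes tested on Western diet and 0.66% on chow. The knockout mean was 4.27% of the wildtype mean on Western diet (0.355 ± 0.209 against 8.31 ± 4.27 CPM, SD, n = 15 each) and 6.88% on chow (0.601 ± 0.138, n = 4, against 8.74 ± 3.89 CPM, n = 5).

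In the edgeR quasi-likelihood test Cd163 fell by 4.50 on the log2 scale in knockout mice on Western diet (SE 0.30, adjusted p = 1.04e-13) and by 3.86 on chow (SE 0.53, adjusted p = 0.000127). It was the 1 gene called in each of these comparisons, which is 0.00654% of the genes tested. Without the 4 libraries it was again the 1 gene called in each (0.00647%), at -4.56 and -3.67 (adjusted p = 6.76e-12 and 0.0192). In permutation tests of mean log2 CPM, 2-sided, p was 2e-05 on Western diet and, in the exact test over 126 splits on chow, 0.0159, each the smallest p that the test can give. Knockout libraries still held 0 to 12 Cd163 counts, and 1 of them, knockout Western diet J, held 0. Summed over the libraries of a group, Cd163 was at 0.366 CPM in knockout Western diet (95% Poisson interval 0.292 to 0.453) and at 0.618 in knockout chow (0.433 to 0.856). These intervals cover counting error alone.

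Wildtype Cd163 did not differ by diet beyond its spread (log2 fold change -0.08, 95% interval -0.72 to 0.56, adjusted p = 0.932). The limma voom fit with quality weights kept the direction on chow (-3.81) but not the call (adjusted p = 0.451).

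**Figure D1:**
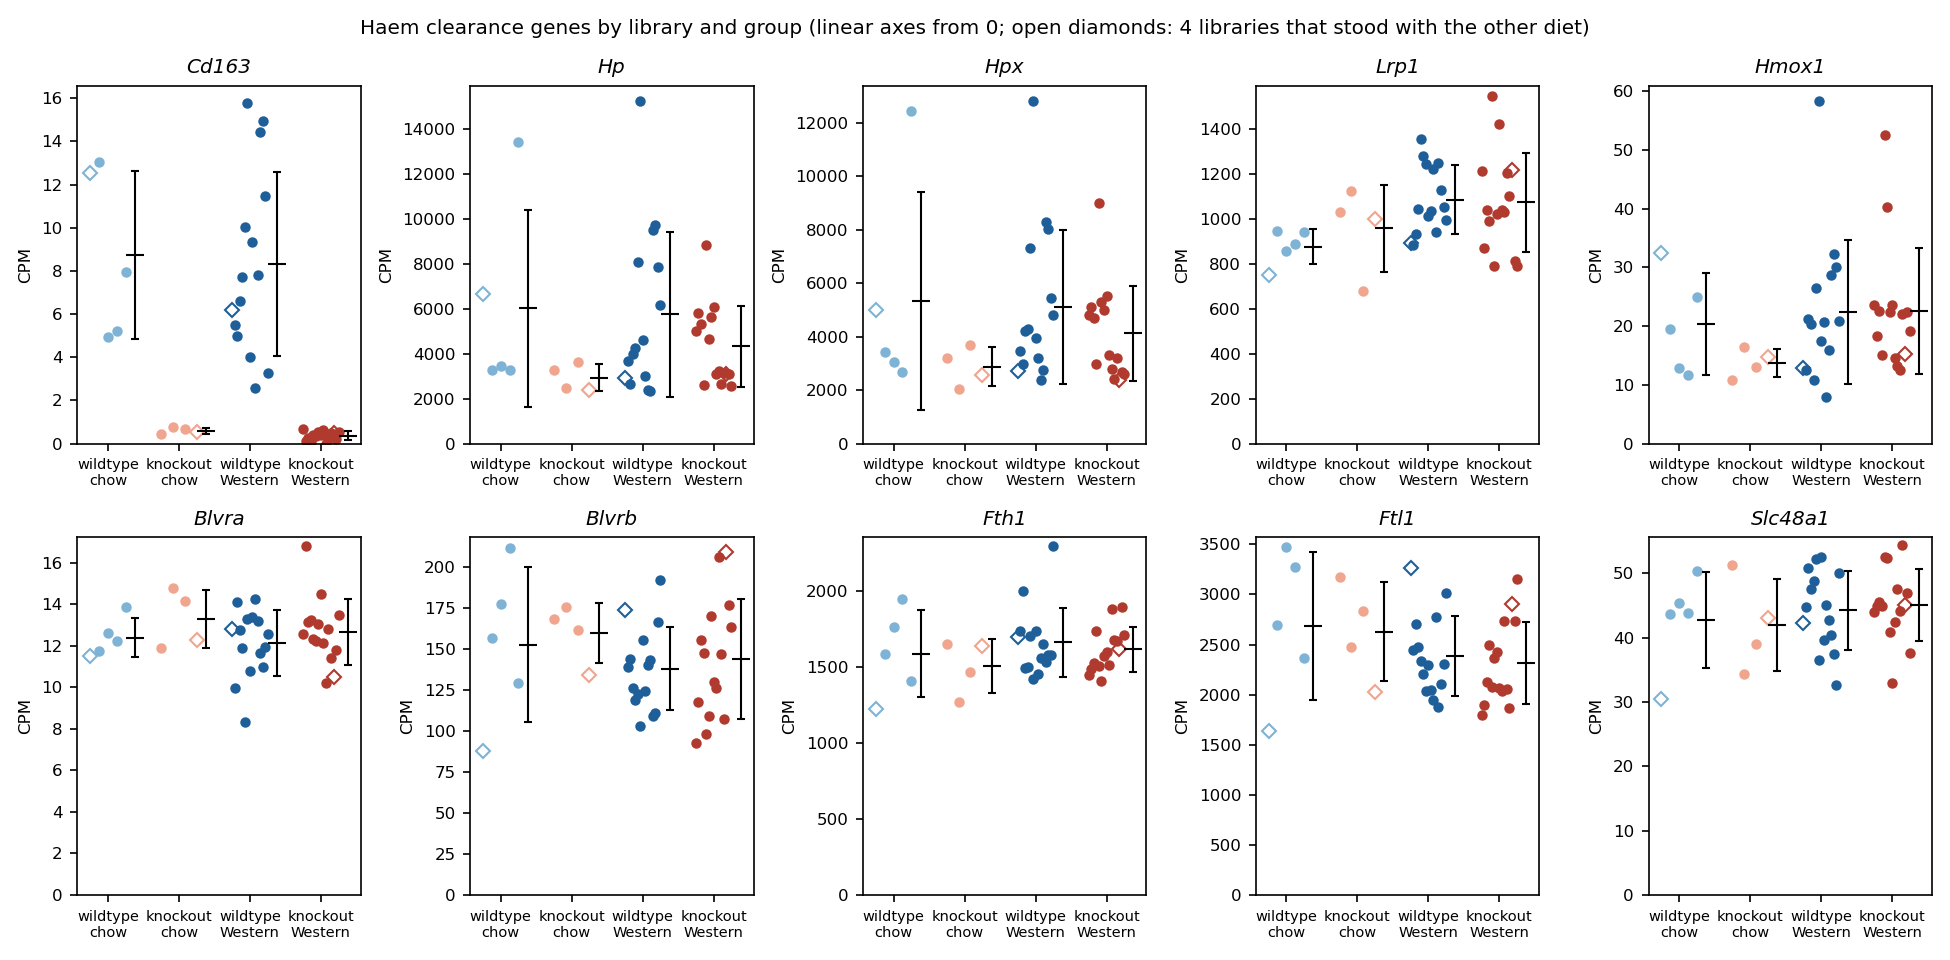
Expression of the 10 genes in CPM (vertical axes, linear from 0) in each of the 39 livers by group, with the mean and SD beside the points. Cd163 is the gene whose genotypes separate on both diets; Hp, Hpx and Hmox1 have a few livers far above the rest, such as wildtype Western diet G at 15255, 12805 and 58.4 CPM.

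Of the other 9 genes, 0 were called between the genotypes on either diet, by edgeR, DESeq2 or limma voom. DESeq2 called 0.0196% of genes on Western diet and 0.0131% on chow, and limma voom 0.00654% and 0%. At an unadjusted p under 0.05, 0 of the 9 stood out on Western diet and 1, Hp, on chow, against 5.08% and 2.74% of all genes tested. The median log2 fold change of the 9 was -0.02 on Western diet and -0.03 on chow, against 0.01 and 0.00 for all genes tested.

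The plasma carriers, which hepatocytes secrete, had the widest gaps between genotypes among these 9. Hp was at 6657, 3275, 3465, 3285 and 13452 CPM in wildtype chow A to E and at 3256, 2479, 3627 and 2386 CPM in knockout chow A to D. Wildtype A and E stood above every knockout liver, and the other 3 wildtype livers overlapped with the knockouts. The log2 difference, knockout minus wildtype, was -1.04 (95% interval -2.03 to -0.04, edgeR p = 0.0411, adjusted p = 1.00), and it was -0.51 without wildtype chow E. Without the 4 libraries, wildtype chow A among them, it was -0.94 (p = 0.112, adjusted p = 0.914).

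Hpx followed the same livers, at 4996, 3420, 3053, 2690 and 12464 CPM in wildtype chow A to E and at 3213, 2052, 3683 and 2580 CPM in knockout chow A to D. Its log2 difference was -0.89 (95% interval -1.81 to 0.03, adjusted p = 1.00), and -0.30 without wildtype chow E. Without the 4 libraries the Hpx difference was -0.88 (edgeR adjusted p = 0.914). Wildtype E also had the highest mean of an acute phase list of 21 other genes on chow (log2 CPM 8.76, with wildtype A at 8.76 and the other 7 chow libraries at 6.52 to 6.85). Its summed neutrophil markers were at 19.98 CPM, against 2.89 to 7.06 CPM in the other chow libraries; their part in the result was not tested.

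On Western diet Hp ran from 2337 to 15255 CPM in wildtype livers (median 4255) and from 2576 to 8856 CPM in knockout livers (median 3229). The knockout range lay within the wildtype range, and the log2 difference was -0.41 (95% interval -0.94 to 0.11, adjusted p = 0.943). Hpx ran from 2389 to 12805 CPM (median 4222) in wildtype and from 2382 to 9017 CPM (median 3317) in knockout livers, with a log2 difference of -0.31 (-0.80 to 0.18, adjusted p = 0.959). For both carriers 12 of 15 knockout livers lay below the wildtype mean. That mean was above the wildtype median, at 5764 against 4255 CPM for Hp and 5106 against 4222 CPM for Hpx. Most wildtype livers thus lay below it as well.

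Lrp1, the hemopexin receptor that hepatocytes and macrophages share with many other ligands, was at 753 to 946 CPM in wildtype chow and 681 to 1124 CPM in knockout chow. On Western diet it was at 887 to 1359 CPM in wildtype livers (median 1046) and 792 to 1550 CPM in knockout livers (median 1042). The 95% interval of the genotype difference on Western diet, -0.20 to 0.17 on the log2 scale, spanned 0.

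Hmox1, the enzyme that opens the haem ring, was a transcript of low level with single high livers. It was at 32.4, 19.5, 12.8, 11.8 and 25.04 CPM in wildtype chow A to E and at 10.8, 16.4, 13.1 and 14.8 CPM in knockout chow A to D. Wildtype A, E and B lay above every knockout liver and C and D among them (log2 difference -0.56, 95% interval -1.42 to 0.30, adjusted p = 1.00). Without the 4 libraries the difference on chow was -0.40 (edgeR adjusted p = 0.951). On Western diet Hmox1 ran from 7.91 to 58.4 CPM in wildtype livers (median 20.6) and from 12.5 to 52.6 CPM in knockout livers (median 22.0), with a log2 difference of 0.01 (-0.45 to 0.47, adjusted p = 0.999).

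The biliverdin reductases turn biliverdin into bilirubin, Blvra as the main adult form and Blvrb as a broader flavin reductase. Blvra was among the steadiest of the 10 genes, at 11.5 to 14.8 CPM over all chow livers and 8.34 to 16.8 CPM over all Western diet livers. Its genotype difference on Western diet was 0.06 on the log2 scale (95% interval -0.08 to 0.20, adjusted p = 0.962). Blvrb was at 87.8 to 212 CPM in wildtype chow, 134 to 176 CPM in knockout chow, 103 to 192 CPM in wildtype Western diet and 92.7 to 209 CPM in knockout Western diet livers. Its genotype differences were 0.06 (-0.18 to 0.29) on Western diet and 0.07 (-0.36 to 0.50) on chow.

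The ferritin subunits, Fth1 with the iron-oxidising site and Ftl1 the light chain, carry the elements printed above. Fth1 was at 1226, 1586, 1767, 1953 and 1409 CPM in wildtype chow A to E and at 1652, 1270, 1468 and 1641 CPM in knockout chow A to D. On Western diet it was at 1423 to 2301 CPM in wildtype (median 1584) and 1409 to 1895 CPM in knockout livers (median 1599). The genotypes overlapped on both diets, and the 95% interval on Western diet was -0.18 to 0.10 on the log2 scale.

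Ftl1 was at 1632, 2692, 3476, 3272 and 2370 CPM in wildtype chow A to E and at 3176, 2475, 2838 and 2027 CPM in knockout chow A to D. Wildtype A and knockout D, the chow libraries that stood with the other diet, were the lowest of their groups. On Western diet Ftl1 was at 1875 to 3263 CPM in wildtype (median 2308) and 1799 to 3149 CPM in knockout livers (median 2127), a log2 difference of -0.04 (-0.24 to 0.16, adjusted p = 0.980). Named pseudogenes in the table held 0.237% of the Ftl1 count and 0.0128% of the Fth1 count, and how reads shared with copies were assigned is not given in the sources used here.

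Slc48a1, the haem exporter of the lysosome, was at 30.4 to 50.4 CPM in wildtype chow, 34.4 to 51.3 CPM in knockout chow, 32.6 to 52.5 CPM in wildtype Western diet and 32.9 to 54.4 CPM in knockout Western diet livers. Its genotype difference on Western diet was 0.03 on the log2 scale (95% interval -0.12 to 0.18, adjusted p = 0.982). Hdac7 overlaps it on the other strand, with a total count of 37.0% of that of Slc48a1, and the strand setting of the counting is not given, so its level is uncertain by reads of Hdac7.

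**Figure D2:**
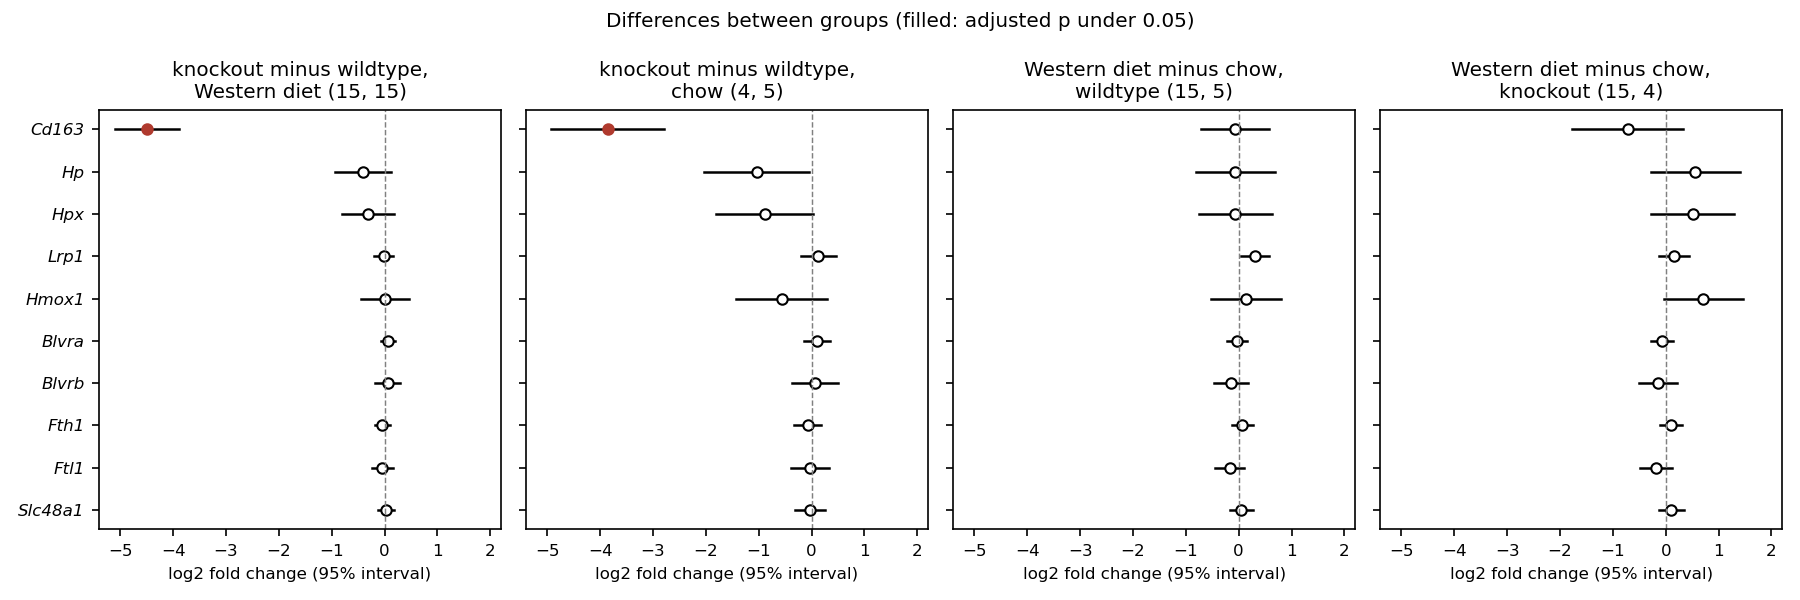
Log2 fold changes of the 10 genes (points) with 95% intervals (lines) in 4 comparisons, with the numbers of mice in brackets. Cd163 at -4.50 and -3.86 is the gene called between genotypes, and no member is called between diets.

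Between the diets, 0 of the 10 genes were called in either genotype by edgeR, DESeq2 or limma voom, against 1.39% of all genes tested in wildtype and 0.00654% in knockout mice by edgeR, 3.99% and 2.46% by DESeq2 and 6.67% and 5.26% by limma voom. DESeq2 gave Cd163 no adjusted p in knockout mice. The diets overlapped in CPM for all 10 genes in both genotypes, and did not overlap for 0.17% of all genes in wildtype and 0.0262% in knockout mice. At an unadjusted p under 0.05, 1 of the 9 members other than Cd163 stood out in wildtype (Lrp1) and 0 in knockout mice, against 17.2% and 19.2% of all genes. With the 4 doubtful libraries left out, 0 of the 10 were called as well, against 8.66% of all genes in wildtype and 17.2% in knockout mice.

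Lrp1 had the smallest p in wildtype mice, at 878 ± 79.3 CPM (SD, n = 5) on chow and 1087 ± 153 CPM (n = 15) on Western diet. All 15 livers on Western diet exceeded the mean on chow, and the log2 difference was 0.31 (SE 0.13, edgeR adjusted p = 0.207). In knockout mice it was 0.16 (SE 0.14, adjusted p = 0.519), and the difference between the genotypes in the response to diet was not called. Without the 4 libraries wildtype Lrp1 was at 909 ± 43.2 CPM (n = 4) on chow and 1101 ± 148 CPM (n = 14) on Western diet. The log2 difference was then 0.28 (SE 0.14, edgeR adjusted p = 0.228), and the lowest liver on Western diet, at 887 CPM, lay below the chow mean.

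Hmox1 had the smallest p in knockout mice, at 13.8 ± 2.40 CPM (n = 4) on chow and 22.5 ± 10.7 CPM (n = 15) on Western diet. It exceeded that chow mean in 13 of the 15 livers on Western diet, with a log2 difference of 0.71 (95% interval -0.04 to 1.46, edgeR adjusted p = 0.281). In wildtype mice the difference was 0.14 (-0.51 to 0.80, adjusted p = 0.865). Wildtype chow A, the highest chow liver for Hmox1 at 32.4 CPM, is among the 4 doubtful libraries. Without those 4 the difference was 0.42 in wildtype (SE 0.36, edgeR adjusted p = 0.515) and 0.81 in knockout mice (SE 0.42, adjusted p = 0.185).

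Ftl1 came nearest to the threshold when the 4 libraries were left out. It was then at 2952 ± 511 CPM (n = 4) on chow and 2326 ± 330 CPM (n = 14) on Western diet in wildtype mice, a log2 difference of -0.34 (SE 0.12, edgeR adjusted p = 0.0803), against -0.17 (adjusted p = 0.556) with all libraries. In knockout mice the difference without them was -0.29 (SE 0.14, adjusted p = 0.146), against -0.18. Blvrb moved alike in wildtype mice, from -0.15 to -0.32 (SE 0.15, adjusted p = 0.202). Fth1 was at -0.01 (SE 0.10) in wildtype mice without the 4 libraries. Those libraries were picked by their diet genes, so the p values without them are not independent of that choice.

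The interaction of genotype and diet was called for 0 of the 10 genes and for 0% of all genes tested, by edgeR, DESeq2 and limma voom alike. At an unadjusted p under 0.05, 0 of the 9 members other than Cd163 stood out, against 1.86% of all genes.

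Levels can be compared between genes per kilobase of merged exons. In wildtype Western diet livers the order, in mean CPM per kilobase ± SD (n = 15), was led by Hp at 3589 ± 2294 and Hpx at 3406 ± 1918, followed by Ftl1 at 1783 ± 298 and Fth1 at 480 ± 65.9. Lrp1 (61.3 ± 8.61) and Blvrb (49.6 ± 9.16) came next, then Slc48a1 (16.1 ± 2.22), Hmox1 (12.8 ± 7.02), Blvra (4.96 ± 0.653) and Cd163 (1.52 ± 0.782). Ranges over livers overlapped between Hp, Hpx and Ftl1 and between Lrp1 and Blvrb, and that of Hmox1 overlapped with those of Slc48a1 and Blvra, whereas those of Ftl1 and Fth1, of Fth1 and Lrp1, of Blvrb and Slc48a1, of Slc48a1 and Blvra and of Blvra and Cd163 were apart.

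The 10 genes also differed in how far single livers departed from their group. In wildtype Western diet livers the SD of log2 CPM was 0.85 for Hp, 0.78 for Cd163, 0.71 for Hmox1 and 0.71 for Hpx, against a median of 0.28 over all genes tested. Between 91.4% and 95.6% of genes had a smaller SD than these 4. Fth1 (0.18), Lrp1 (0.20), Blvra (0.20), Slc48a1 (0.21), Ftl1 (0.23) and Blvrb (0.26) lay below the median. In knockout livers Hp, Hpx and Hmox1 had SDs of 0.55 to 0.56, above 79.7% to 80.7% of genes, and Fth1, at 0.13, was above 5.04%. The SD of Cd163 in knockouts rests on 0 to 12 counts per library.

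**Figure D3:**
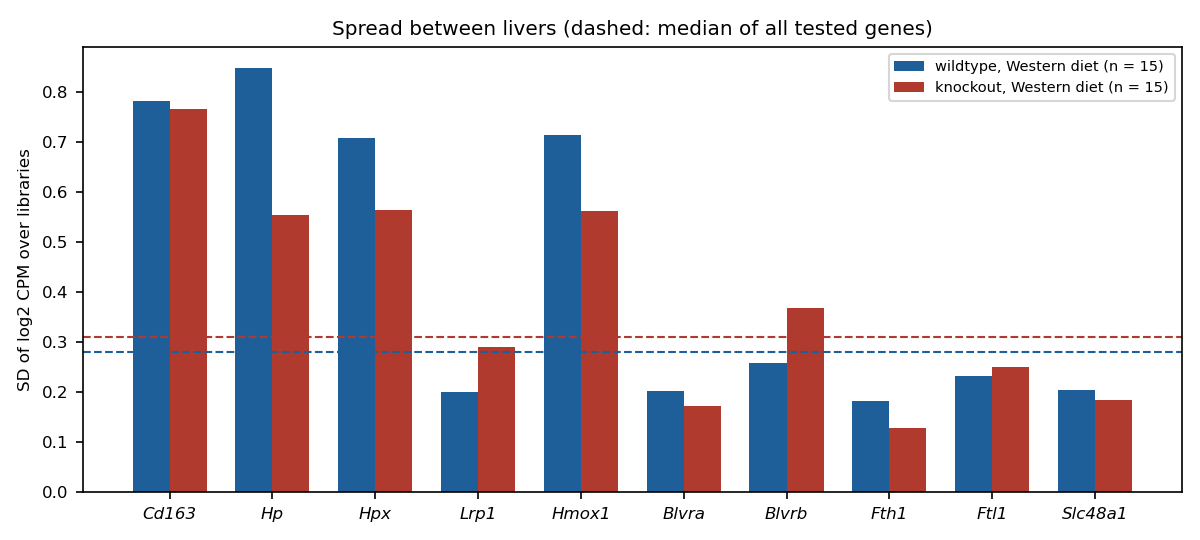
SD of log2 CPM over the 15 livers of each genotype on Western diet for the 10 genes (bars), with the median of all tested genes (dashed lines at 0.28 and 0.31). Cd163, Hp, Hpx and Hmox1 exceed the median in both genotypes, and Fth1 is below it in both.

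The same livers carried the high values. In wildtype Western diet mice, livers F, G, L, M and N were the 5 highest for Cd163, for Hp, for Hpx and for Hmox1. Cd163 was at 10.0 to 15.8 CPM in these 5 and at 2.59 to 9.32 CPM in the other 10, Hp at 7879 to 15255 against 2337 to 6154 CPM, and Hmox1 at 26.4 to 58.4 against 7.91 to 21.3 CPM. The ranges of Lrp1, Blvra, Blvrb, Fth1, Ftl1 and Slc48a1 in the 5 livers overlapped with those in the other 10. The share of all genes that do not overlap in this split of livers was not counted. In knockout mice Hp and Hpx shared 4 of their 5 highest livers (B, E, G and H), and Hmox1 shared 3 of 5 with each. The libraries are numbered in their names, and within each group the replicate letters follow that library number. Wildtype F and G had consecutive library numbers, as had L, M and N. Whether the shared high values follow library order rather than the livers was not tested.

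Other transcripts were high in these livers too. Saa1, a serum amyloid A protein of the acute phase, was at 2085 to 9315 CPM in livers F, G, L, M and N and at 34.2 to 517 CPM in the other 10, and Mt1, a metallothionein, at 141 to 305 against 2.69 to 43.5 CPM. The acute phase list had means of 8.64 to 9.94 log2 CPM in the 5 livers and 6.36 to 7.59 in the other 10. The 12 Kupffer cell markers, all tested, summed to 755 to 1205 CPM in the 5 livers and 455 to 834 CPM in the other 10. Among them, Spic was at 174 and 197 CPM in L and M and at 0.278 to 2.05 CPM in the remaining wildtype Western diet livers. Slc40a1 overlapped between the 5 livers and the other 10 (52.1 to 86.5 against 40.2 to 81.2 CPM), as did Clec4f (108 to 189 against 35.3 to 110 CPM). Vsig4 did not (16.5 to 30.9 against 2.34 to 15.7 CPM), and no share over all genes was counted for this split. The neutrophil markers, of which 4 of 10 were tested and Ly6g reached at most 2 counts, summed to 7.03 to 33.9 CPM against 1.64 to 5.84 CPM. The part of either cell type in the values of Cd163, Hp and Hmox1 was not tested.

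**Figure D4:**
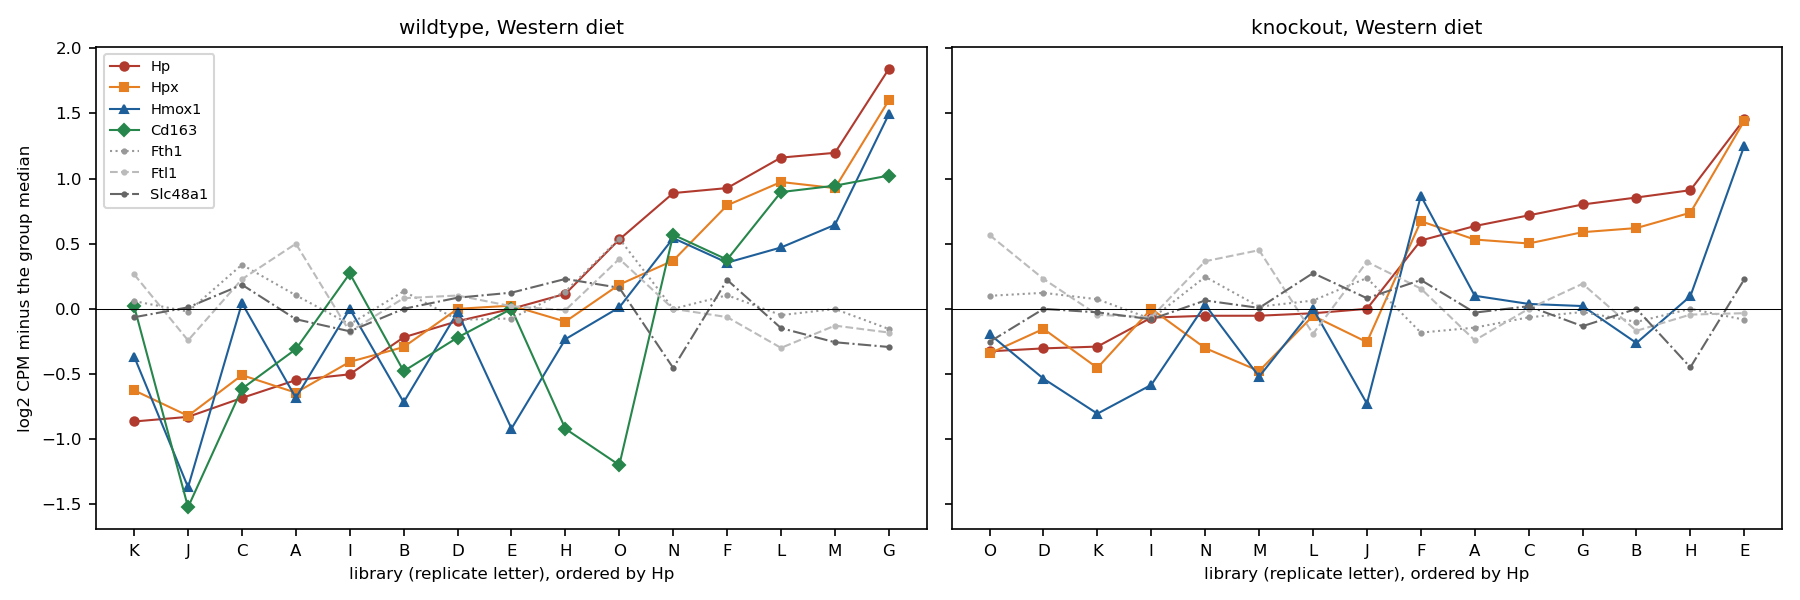
Log2 CPM minus the group median (vertical axis) of 7 genes in each Western diet liver, ordered by Hp within wildtype (left) and knockout (right) mice; Cd163 is drawn for wildtype mice. Hp, Hpx, Hmox1 and Cd163 are above their medians together in wildtype F, G, L, M and N, while Fth1, Ftl1 and Slc48a1 stay nearer to theirs.

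Relations across livers were measured within each genotype on Western diet, as 32 relations in 1 family with 2-sided permutation p over 100000 resamples and Benjamini-Hochberg adjustment. Wildtype L and M, the closest library pair, count as 2 points, and the relations were not measured again with the pair summed. Hp and Hpx moved together in wildtype livers (Pearson r = 0.980, Spearman rho = 0.968, n = 15, permutation p = 1e-05 for each, the smallest that 100000 resamples give, adjusted p = 4.57e-05 and 6.4e-05, and r = 0.968 without the 2 livers farthest from the median). They did so in knockout livers as a whole (r = 0.957, rho = 0.832, n = 15, permutation p = 1e-05 and 0.00022, adjusted p = 4.57e-05 and 0.00101, r = 0.925 without the 2 farthest). The CPM ratio of Hp to Hpx stayed between 0.854 and 1.44 in all 39 livers, while Hp itself spanned 2337 to 15255 CPM.

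Hp followed the acute phase list in both genotypes (wildtype r = 0.980, rho = 0.986; knockout r = 0.984, rho = 0.957; permutation p = 1e-05 and adjusted p at most 6.4e-05 for each; r = 0.967 and 0.987 without the 2 farthest livers). In knockout mice a gap in Hp lay between 8 livers at 2576 to 3229 CPM and 7 at 4645 to 8856 CPM. It took 0.294 of the range of log2 CPM, and the livers were not treated as separate clusters. The 7 higher livers were A to C and E to H. Of the 8 lower ones, D alone lay among them in library number, and the others came after. A link of Hp with library order was not tested. Within these 2 sets, Hp and the acute phase list had r = 0.926 (n = 8) and r = 0.960 (n = 7). Hp and Hpx had r = 0.269 in the 8 lower livers and r = 0.903 in the 7 higher ones. The 2 sets were made by Hp itself, which narrows its spread within each, so these values are given with no test.

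Hmox1 followed the mean of the Kupffer cell list in wildtype livers (r = 0.891, rho = 0.900, n = 15, permutation p = 2e-05 and 3e-05, adjusted p = 8e-05 and 0.00016, r = 0.826 without the 2 farthest). That list holds Spic, at 174 and 197 CPM in L and M, which raises the list mean of these 2 livers. The relations of Hmox1 and Cd163 with the list were not measured without Spic. In knockout mice livers E and F, at 52.6 and 40.3 CPM, stood apart from the other 13 at 12.5 to 23.6 CPM, and in those 13 r was 0.801 (rho = 0.775, permutation p = 0.00101 and 0.00268, adjusted p = 0.00294 and 0.0078, r = 0.605 without the 2 farthest). Knockout F had the highest Kupffer cell mean of its group (4.91 log2 CPM), and knockout E, the highest in Hmox1, Hp and Hpx, lay at 3.66, below the group median of 3.93.

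**Figure D5:**
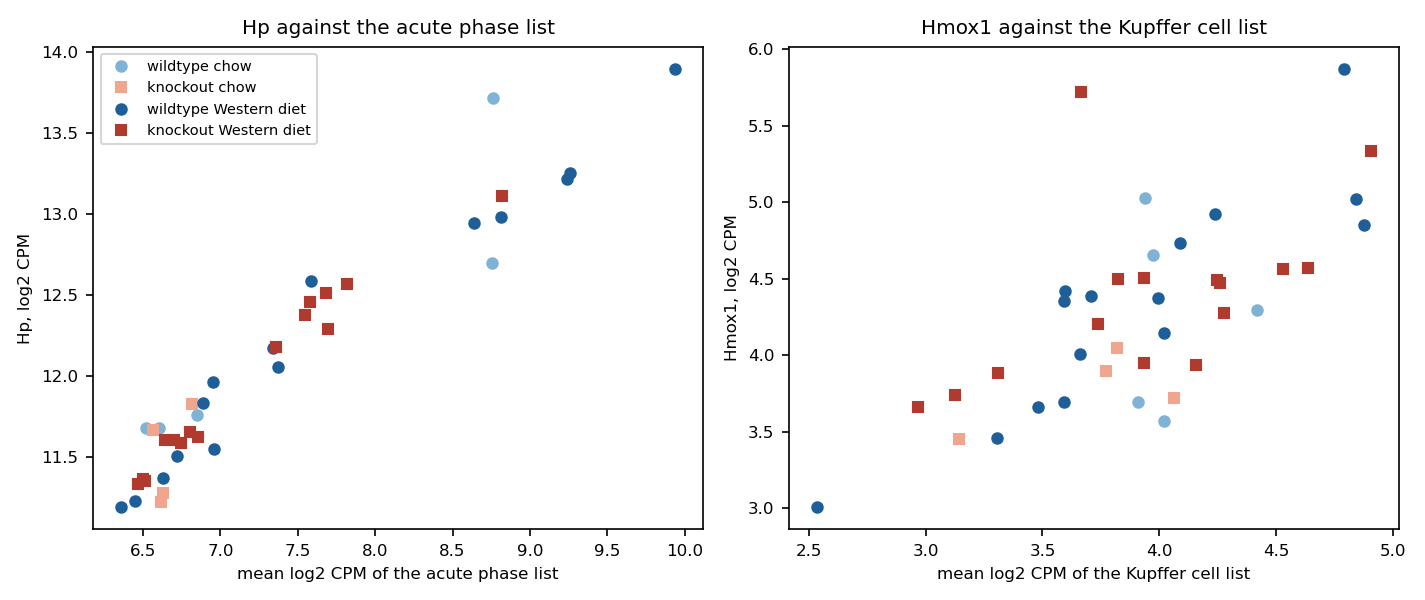
Hp against the mean of the acute phase list (left) and Hmox1 against the mean of the Kupffer cell list (right), all in log2 CPM, with 1 point per liver coloured by group. Livers with a high acute phase mean have high Hp, and knockout Western diet E, at an Hmox1 level of 52.6 CPM, lies above the other livers of like Kupffer cell mean.

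Cd163 followed the Kupffer cell list (r = 0.826, rho = 0.732, permutation p = 0.00011 and 0.00263, adjusted p = 0.000384 and 0.0078, r = 0.796 without the 2 farthest) and Hmox1 (r = 0.737, rho = 0.714, adjusted p = 0.00377 and 0.00947, r = 0.737) over the 15 wildtype livers. Its relations with Hp (r = 0.671, rho = 0.646, adjusted p = 0.0151 and 0.025, r = 0.772) and with the acute phase list (r = 0.755, rho = 0.693, adjusted p = 0.00328 and 0.0131, r = 0.831) were added after the values were seen. Hp was related to Hmox1 in wildtype livers (r = 0.821, rho = 0.757, adjusted p = 0.000384 and 0.00629, r = 0.687 without the 2 farthest) and in 13 knockout livers (r = 0.624, rho = 0.544, adjusted p = 0.045 and 0.0884, r = 0.637). Livers F, G, L, M and N hold the highest values of Cd163, Hp and Hmox1, so leaving them out narrows each range, and the values in the other 10 are given with no test. In those 10, r was 0.477 for Cd163 with the Kupffer cell list, 0.280 with Hmox1, -0.196 with Hp and -0.093 with the acute phase list. It was 0.314 for Hp with Hmox1, 0.941 for Hp with Hpx and 0.824 for Hmox1 with the Kupffer cell list.

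Hmox1 was related to the acute phase list as well, with r = 0.830 in wildtype livers (rho = 0.764, adjusted p = 4.57e-05 and 0.00472, r = 0.750 without the 2 farthest) and 0.652 in 13 knockout livers (rho = 0.643, adjusted p = 0.0386 and 0.0442, r = 0.614). Blvrb went the other way, with r = -0.521 in wildtype (rho = -0.539, adjusted p = 0.0728 and 0.0694, r = -0.479) and -0.573 in knockout livers (rho = -0.550, adjusted p = 0.0412 and 0.0632, r = -0.353). For Ftl1, r was -0.516 in wildtype and -0.501 in knockout livers (adjusted p = 0.0729 for each). The relations with the acute phase list in this paragraph were added after the values were seen.

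The ferritin subunits moved together less tightly, with r = 0.649 in wildtype (rho = 0.575, adjusted p = 0.0184 and 0.0516, r = 0.509 without the 2 farthest) and 0.577 in knockout livers (rho = 0.575, adjusted p = 0.0412 and 0.0516, r = 0.434). Hmox1 was not seen to follow Blvrb (wildtype r = -0.398, adjusted p = 0.169), Slc48a1 (r = -0.467, adjusted p = 0.102) or the erythroid list, which holds globin genes (r = 0.019, adjusted p = 0.944). Slc48a1 did not rise with the Kupffer cell list either (wildtype r = -0.504, adjusted p = 0.0729; knockout r = -0.118, adjusted p = 0.699).

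Over 11819 named genes, those whose pattern over the 15 wildtype Western diet livers was most like that of a member were ranked by Spearman rho, as a description over points that share library and depth. For Hp they were Saa1 (rho 0.971), Lcn2 (0.968), Hpx (0.968) and Cd302 (0.964), and for Hpx they were Lcn2 (0.993), Hp, Prg4 (0.968) and Fgl1 (0.961). For Hmox1 they were Cd5l (0.946), Csf1r (0.946), Clec4f (0.943) and C1qc (0.939), of which Cd5l, Csf1r and Clec4f belong to the Kupffer cell list. For Cd163 they were Apobec1 (0.932), Ttpal (0.932), Hsp90aa1 (0.921) and Ppp4r4 (0.921), none of which belongs to that list. For Slc48a1 they were Aplp2 (0.925), Akr1a1 (0.921), Dpp4 (0.921) and Slc27a4 (0.918). In knockout livers, which the ranking did not use, rho of the same genes was 0.686 to 0.961 for Hp, 0.704 to 0.861 for Hpx, 0.550 to 0.682 for Hmox1 and 0.371 to 0.732 for Slc48a1.

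The wider pathway was read from lists of other genes. Of 15 genes of haem transport and control of Hmox1, 0 were called by edgeR in any comparison, with 2 on Western diet and 1 on chow at an unadjusted p under 0.05 between genotypes, against 5.08% and 2.74% of all genes. Between diets 4 in wildtype and 1 in knockout mice had such a p, against 17.2% and 19.2% of all genes; DESeq2 called 1 and 1 of the 15 there, and limma voom 2 and 1. Between genotypes DESeq2 called 1 on each diet, Spic, which encodes a transcription factor needed for red pulp macrophages and is on the Kupffer cell list as well. Spic was at 98.3 to 290 CPM in 5 wildtype livers, chow B, C and D and Western diet L and M, and at 0.278 to 3.80 CPM in the other 34, all 19 knockout livers among them. Hmox1 in these 5 livers was at 19.5, 12.8, 11.8, 28.7 and 32.3 CPM, within the range of the other wildtype livers. Wildtype chow B, C and D had consecutive library numbers, as had Western diet L and M. A link of Spic with library order was not tested.

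Of 8 genes of bilirubin conjugation and transport, Slco1a4, an uptake transporter of organic anions, fell on Western diet in wildtype mice from 32.1 ± 22.6 to 9.95 ± 6.58 CPM (log2 fold change -1.69, SE 0.43, edgeR adjusted p = 0.0456). In knockout mice it was at 23.8 ± 15.1 and 9.59 ± 5.23 CPM (log2 fold change -1.29, SE 0.47, adjusted p = 0.155). Of 11 genes of haem synthesis, 17 tested genes of iron storage, export and uptake and 8 tested targets of NRF2, 0 were called by edgeR in any comparison. Between diets, 1, 3 and 1 of them had an unadjusted p under 0.05 in wildtype mice and 3, 7 and 1 in knockout mice, against 17.2% and 19.2% of all genes. Between genotypes 0, 3 and 0 had such a p on Western diet and 0, 1 and 0 on chow, against 5.08% and 2.74%. The smallest on Western diet were Slc40a1, at 63.6 CPM in wildtype and 77.2 in knockout mice (edgeR p = 0.0147), and Ireb2, at 60.1 and 66.9 (p = 0.0192). On chow it was Ireb2, at 62.2 and 76.2 CPM (p = 0.0164). Of the 17 iron genes, 11 had negative differences on Western diet and 12 on chow.

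Hamp, which encodes the iron hormone hepcidin, had the smallest p of the iron list between diets, at 877 ± 94.6 CPM on chow and 339 ± 305 CPM on Western diet in wildtype mice (adjusted p = 0.120) and at 949 ± 533 and 244 ± 239 CPM in knockout mice (adjusted p = 0.0966). Without the 4 libraries it was called, at 916 ± 41.6 CPM (n = 4) and 268 ± 134 CPM (n = 14) in wildtype mice (log2 fold change -1.77, SE 0.33, edgeR adjusted p = 0.000734) and at 1160 CPM (n = 3) and 186 ± 77.3 CPM (n = 14) in knockout mice (-2.62, SE 0.35, adjusted p = 7.79e-06). Hamp in those left out was at 720 (wildtype chow A), 316 (knockout chow D), 1337 (wildtype Western diet A) and 1065 CPM (knockout Western diet M). They were picked by their diet genes, so these p values are not independent of that choice.

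Without those libraries Abcg2, an exporter of haem and porphyrins among other compounds, was called higher on Western diet in both genotypes, from 63.8 ± 11.5 to 138 ± 19.1 CPM in wildtype mice (log2 fold change 1.12, adjusted p = 3.83e-06) and from 65.1 ± 3.72 to 151 ± 32.8 CPM in knockout mice (1.24, adjusted p = 8.05e-06). Cpox, which oxidises coproporphyrinogen in haem synthesis, was called higher in both (0.46, adjusted p = 0.0496, and 0.72, adjusted p = 0.00454), as was Ncoa4, the receptor that brings ferritin to the lysosome (0.60, adjusted p = 0.0243, and 0.68, adjusted p = 0.0162). Bmp6, a signal that raises hepcidin, was called lower in both (-0.68, adjusted p = 0.0469, and -0.81, adjusted p = 0.0204). With all 39 libraries edgeR did not call these 4 genes, with adjusted p of 0.0814 to 0.322. Calls between diets without the 4 libraries are not independent of the diet genes by which those libraries were picked. Of the lists of haem transport, bilirubin, haem synthesis, iron and NRF2 targets, 1 of 15, 2 of 8, 1 of 11, 3 of 17 and 0 of 8 genes were called in wildtype mice without the 4 libraries, and 2, 2, 2, 5 and 1 in knockout mice. The shares over all genes there were 8.66% and 17.2%. Other genes of these lists called without the 4 libraries were Gsta2 (lower) in wildtype mice, Pgrmc2, Ugt1a1, Aco1, Steap3 and Srxn1 (higher) and Ppox (lower) in knockout mice, and Slco1a4 (lower) in both.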

How the data were processed

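RNA was measured in whole liver of 39 mice, 1 library each. The deposited values are raw counts per gene; per the submitters' processing notes they involved STAR 2.7.8a, featureCounts 2.0 and GRCm39, and the annotation release and strand setting are not given in the sources used here. Of 55416 identifiers, 52083 matched a symbol in GENCODE M21 (99.4% of counts). Tf, Hjv and Ahsp were not matched.

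Genes were tested with edgeR 4.0.16 (quasi-likelihood, TMM, 4 groups, all 39 libraries, filterByExpr with a minimum count of 10 and total of 15) in R 4.3.3, with Benjamini-Hochberg adjustment over all tested genes and a threshold of 0.05. The CPM values use the TMM library sizes, and log2 CPM a prior count of 2. The test was tested on simulated data. Alternatives were RLE factors, DESeq2 1.42.0, limma 3.58.1 voom with quality weights, no filter, a replicate block, library number, the compared groups alone, leaving out 4 libraries, summing wildtype Western diet L and M, and leaving out each library. Permutation tests used scipy 1.17.1.

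The members, the lists and the rule for named genes were chosen with earlier results of these data known. The rule names all 10 members, each list's called genes or else its 2 smallest p, and the 4 genes most alike by Spearman rho; list genes called without the 4 libraries, Spic, Saa1 and Mt1 were named after their values were seen. Replicate letters are shared between groups, but no label says that they mark a litter or day, so the main fit has no block.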

Additional observations from a re-analysis of the deposited data

Results flagged for a closer look

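Hpx in wildtype chow E was at 12464 CPM, far above the other 4 wildtype chow livers at 2690 to 4996 CPM. It was 1 of 20 groups of 4 to 10 libraries tested for a far library, and chance flags about 1 in 20. In the same liver Hp was at 13452 CPM, against 3275 to 6657 CPM in the other 4.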

How the results depend on the processing

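Of 359 values of the 10 genes under alternatives other than single left-out libraries, 338 kept their direction and side of the threshold, 1 lost its call (Cd163 on chow by limma voom) and 20 changed sign; the cause was not tested. Calls between genotypes numbered 3 on Western diet by DESeq2 and 3 without a filter, and on chow 2 by DESeq2 and 0 by limma voom. Calls between diets in wildtype mice numbered 212, against 515 by DESeq2, 1020 by limma voom, 44 without a filter, 50 with the replicate block, 0 with library number as covariate, 1339 without the 4 libraries and 116 with L and M summed. In knockout mice they numbered 1, against 230 by DESeq2, 804 by limma voom, 0 without a filter, 0 with the replicate block, 0 with library number, 0 with the compared groups alone, 0 with L and M summed and 2657 without the 4 libraries. Leaving out single libraries gave 0 (without wildtype chow B) to 556 (without wildtype chow A) calls in wildtype and 0 to 1408 (without knockout chow D) in knockout mice, and 1 throughout between genotypes. Log2 differences that changed sign between genotypes on Western diet were Hmox1 -0.040 (library number) and -0.0047 (without the 4), Fth1 0.091 and Ftl1 0.061 (library number). On chow they were Blvrb -0.031 (without the 4), Fth1 0.019 and Ftl1 0.064 (library number), Ftl1 0.0014 and Slc48a1 0.00090 (limma voom) and Slc48a1 0.023 (replicate block). Between diets in wildtype mice they were Cd163 0.11, Hp 0.024, Fth1 -0.013 and Slc48a1 -0.045 without the 4, Hp 0.016, Hpx 0.038 and Fth1 -0.027 with library number, Hpx 0.070 by limma voom, and Hpx 0.076 and Blvra 0.025 with the replicate block. With single libraries left out, Lrp1 ran from -0.062 to 0.011 and Hmox1 from -0.13 to 0.19 between genotypes on Western diet. On chow Blvrb ran from -0.080 to 0.21, Fth1 from -0.16 to 0.011, Ftl1 from -0.17 to 0.072 and Slc48a1 from -0.14 to 0.059. Between diets in wildtype mice Cd163 ran from -0.23 to 0.11, Hp from -0.25 to 0.47, Hpx from -0.23 to 0.53, Hmox1 from -0.036 to 0.37, Blvra from -0.059 to 0.011, Blvrb from -0.29 to 0.0020, Fth1 from -0.013 to 0.15 and Slc48a1 from -0.052 to 0.12. Without the 4 libraries, relations in knockout mice lost their call for Hp with Hmox1 (r = 0.611, from 0.624), Hmox1 with the acute phase list (0.632, from 0.652) and Blvrb with the acute phase list (-0.542, from -0.573), and Hmox1 with the erythroid list in wildtype mice was at -0.058. Same-lettered samples did not deviate together (mean correlation -0.0104 over 15 pairs and -0.0656 over 4, with 2 and 1 best with their own letter), and Cd163 was called on both diets under the replicate block. Library totals limit Cd163 in knockouts most, at 0 to 12 counts.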

Other observations

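The acute phase list held 21 tested genes, of which 0 were called between genotypes by edgeR and 8 on Western diet and 5 on chow had an unadjusted p under 0.05, against 5.08% and 2.74% of all genes. Its median log2 difference, knockout minus wildtype, was -0.46 on Western diet and -0.71 on chow, against 0.01 and 0.00 for all genes. On chow, list means reached 8.76 log2 CPM in wildtype A and E, against a wildtype median of 6.85 and 6.57 to 6.82 in knockouts. On Western diet they were 8.64 to 9.94 in wildtype F, G, L, M and N and 6.36 to 7.59 in the other wildtype livers. Knockout Western diet livers lay at 6.47 to 8.82 (median 6.86), with E the highest, against a wildtype median of 7.34. The list as a whole was thus high in a few livers of both genotypes, and the p values of its genes are not independent of each other. Wildtype chow A was also among the libraries picked by their diet genes, and no median without it is given. The 12 Kupffer cell markers had a median of 0.19 on Western diet, with 0 called by edgeR or limma voom and 1, Spic, by DESeq2; 2 had an unadjusted p under 0.05.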
